A study of Mus musculus with 6 samples.

Results

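The genes described here are 9 members of the epidermal growth factor (EGF) signalling family: the receptors Egfr, Erbb2 and Erbb3, and the ligands Nrg1, Tgfa, Hbegf, Ereg, Areg and Btc. They were taken by symbol from a table of 20325 genes, in which all 9 were listed, and 8 of the 9 reached the mean of 10 over all samples that was required for testing. The table came from RNA sequencing of C3H10T1/2 cells, a mesenchymal progenitor line derived from C3H mouse embryos, kept in medium with fetal serum and used at passage 10 to 15. The study compared parental cells given a scrambled small interfering RNA (siRNA; control, 3 samples) with parental cells given siRNAs against Ring1a and Ring1b (knockdown, 3 samples), to see how the transcriptome changes when both proteins are depleted. The siRNA dose and the time after transfection were not given in the sources used here. All 6 samples come from a single cell line, so they describe progenitors in culture and no other cell type. Every value below is an estimated read count per gene after the authors' median normalization, and every log2 fold change is knockdown minus control on log2(value + 1), which understates the change of low genes.

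ErbB receptors are tyrosine kinases at the cell surface that signal as pairs. EGFR, encoded by Egfr, binds EGF, TGF-alpha (Tgfa), amphiregulin (Areg), epiregulin (Ereg), betacellulin (Btc) and heparin-binding EGF (Hbegf). ErbB3 and ErbB4 bind neuregulins such as that encoded by Nrg1, and ErbB2 binds no known ligand but is the preferred partner of the others. ErbB3 has very weak kinase activity and couples a receptor pair to PI3 kinase. The ligands are made as membrane precursors and are released by metalloproteases. Ring1a and Ring1b, encoded by Ring1 and Rnf2, are ubiquitin ligase subunits of a Polycomb complex found mostly at CpG-rich promoters of developmental genes.

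Because that complex is known for CpG-rich promoters, the promoters of 3 ligand genes are shown, with every CG dinucleotide in capitals. They are RefSeq sequences (build GRCm38.p6, newer than the mm9 build named in the submitters' processing notes), running 5′ to 3′ on the strand of the gene, from 250 bases before to 50 bases after a transcript start. Areg was close to silent in these cells, Btc was low, and Tgfa was the second ligand by length-scaled level.

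Tgfa, chr6:86194972-86195271, plus strand: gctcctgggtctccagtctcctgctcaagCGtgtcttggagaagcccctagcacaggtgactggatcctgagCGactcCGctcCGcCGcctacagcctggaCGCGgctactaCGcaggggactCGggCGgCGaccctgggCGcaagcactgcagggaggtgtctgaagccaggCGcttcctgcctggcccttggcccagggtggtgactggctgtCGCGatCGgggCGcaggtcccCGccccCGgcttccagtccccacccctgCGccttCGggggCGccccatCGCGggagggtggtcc

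Areg, chr5:91139349-91139648, plus strand: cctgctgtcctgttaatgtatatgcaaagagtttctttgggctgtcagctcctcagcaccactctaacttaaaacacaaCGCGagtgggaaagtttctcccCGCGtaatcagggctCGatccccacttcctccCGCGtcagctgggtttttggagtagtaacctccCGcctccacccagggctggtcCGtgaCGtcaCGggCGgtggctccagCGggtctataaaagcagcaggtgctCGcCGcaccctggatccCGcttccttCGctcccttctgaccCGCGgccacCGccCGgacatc

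Btc, chr5:91402945-91403244, minus strand: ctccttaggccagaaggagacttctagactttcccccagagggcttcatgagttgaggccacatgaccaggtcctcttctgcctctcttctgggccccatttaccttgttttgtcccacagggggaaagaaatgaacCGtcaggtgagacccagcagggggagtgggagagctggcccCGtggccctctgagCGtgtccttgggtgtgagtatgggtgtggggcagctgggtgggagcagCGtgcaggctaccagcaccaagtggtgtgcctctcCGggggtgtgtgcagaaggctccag

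The Tgfa promoter holds 24 CG dinucleotides, the Areg promoter 21 and the Btc promoter 5, against a median of 7 over 32851 promoters of the same length. At least 24 were found in 19.98% of those promoters, at least 21 in 24.8% and at least 5 in 62.0%. The promoters of Egfr, with 15, and Erbb2, with 21, were the other members used (5 of 9). Ereg, Nrg1 and Erbb3 had no entry among the promoters. The promoter of Hbegf was left out of the search and is not reported here. Areg and Erbb2 hold the same number of CG dinucleotides, although Erbb2 was the second highest member per kilobase of transcript and Areg the lowest. Searched on both strands, the cyclic AMP response element TGACGTCA occurs in the Areg promoter, beginning 61 bases before the start, and in 1.79% of all promoters. The TATA motif TATAAA begins 31 bases before the Areg start and occurs in 13.6% of all promoters. Neither of these, nor the AP-1 motif TGACTCA (5.20% of all promoters), was found in the other 4 promoters, and AP-1 was not found in Areg either. The motifs do not overlap each other, and TGACGTCA contains a CG of its own. These matches describe letters and not binding.

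Facts of the whole series that touch these genes are as follows. Rnf2 ranged from 799 to 829 in the controls and from 76.5 to 152 in the knockdowns, and Ring1 from 336 to 386 and from 162 to 268. With all libraries Rnf2 passed (log2 fold change −2.82, limma adjusted p = 0.00946). Ring1 missed the threshold (log2 fold change −0.86, limma adjusted p = 0.104), and its highest knockdown value was that of replicate 2. Knockdown replicate 2 stood apart: across genes, its log2 values correlated at 0.821 to 0.867 with the other libraries, and all other pairs lay between 0.944 and 0.993. Estimated depth ran from 4.58e+06 reads in knockdown replicate 2 and 5.45e+06 in control replicate 2 to 5.18e+07 in control replicate 1, so that 3 reads equal a value of 12.8 in knockdown replicate 2 but 0.777 in control replicate 1. All 10 mesenchymal markers, among them Vim, Col1a1, Pdgfra and Twist1, were expressed in every library, with a summed level of 411048 to 434543 in the controls and 304572 to 460783 in the knockdowns. These sums hide single markers. Vim and Pdgfra were lower in all 3 knockdowns than in all 3 controls, Twist1 was higher, and Col1a1 overlapped. Of all genes tested, 23.7% were lower and 20.5% higher in this way. The 10 epithelial markers summed to 17.5 to 31.6 in the controls and 19.2 to 42.5 in the knockdowns, mostly Cdh1. Epcam, a defining epithelial marker, had at most 1 read in any library. Because these are bulk samples, fewer cells expressing a gene and less RNA per cell cannot be told apart.

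Erbb3 was the member with the largest difference. Its values were 150.7, 125.3 and 116.5 in control replicates 1, 2 and 3, against 16.4, 12.8 and 17.1 in knockdown replicates 1, 2 and 3, so all 3 knockdowns lay far below all 3 controls. The mean fell from 131 ± 17.8 to 15.4 ± 2.32 (SD, n = 3), 8.50-fold lower (log2 fold change −3.01, SE 0.22, limma adjusted p = 0.00572). In the authors' deposited table of 323 differential genes, Erbb3 is the only member, with a knockdown to control ratio of 0.119. The value of knockdown replicate 2 rests on 3 reads, with an exact 95% Poisson interval of 2.63 to 37.3 in the normalized unit, which covers counting error only. Those of knockdown replicates 1 and 3 rest on 29 and 24 reads (10.98 to 23.5 and 10.9 to 25.4), while the controls hold 582, 50 and 129 reads. The lowest bound of a control, 93.0, lies above the highest bound of a knockdown. Leaving out knockdown replicate 2, Erbb3 fell by 2.89 on the log2 scale (limma adjusted p = 1.68e-07). Without control replicate 1, 2 or 3 the log2 fold change was −2.90, −3.04 and −3.09, but the limma adjusted p was 0.0659, 0.0602 and 0.0794, in fits where 0 of all genes passed (1495, 1529 and 1475 genes at an unadjusted p under 0.05). Over all alternatives it ran from 2.82e-08 to 0.0981.

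Erbb3 is also a gene of Schwann cells and neural crest, so the markers of those cells are given beside it. Their 6 genes summed to 1799 to 1986 in the controls and to 440.8 to 2109 in the knockdowns, nearly all of it S100b, which cartilage cells express too. S100b had values of 502, 2049 and 412 in the knockdowns against 1719 to 1888 in the controls, so it was high in knockdown replicate 2, where Erbb3 was as low as in the other knockdowns. Sox10, the defining factor of those cells, was at 0 in 5 libraries and at 4.25, a single read, in knockdown replicate 2. Of the 3 tested markers, 0 passed in limma with all libraries (2 at an unadjusted p under 0.05), and Gfap and S100b fell in the fit without knockdown replicate 2. Their part in the Erbb3 result was not tested.

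Egfr and Erbb2 were the abundant receptors, and neither passed with all libraries. Control values of Egfr were 947, 769 and 755, and knockdown values were 1009, 480 and 966. Knockdown replicate 2 was the lowest of all 6 libraries and the other knockdowns were the highest, so the groups overlapped. The log2 fold change was −0.08 (95% interval −0.88 to 0.72, limma adjusted p = 0.884). For Erbb2 the control values were 1155, 1145 and 1074, and the knockdown values 1300, 990.4 and 1324. Again knockdown replicate 2 was lowest and the other knockdowns were highest. Its log2 fold change was 0.09 (95% interval −0.33 to 0.50, limma adjusted p = 0.7499). Both passed with small rises once knockdown replicate 2 was left out, Egfr at 0.27 (SE 0.09, limma adjusted p = 0.0314) and Erbb2 at 0.22 (SE 0.06, limma adjusted p = 0.00606). For Egfr that is a change of direction made by 1 library.

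**Figure D1:**
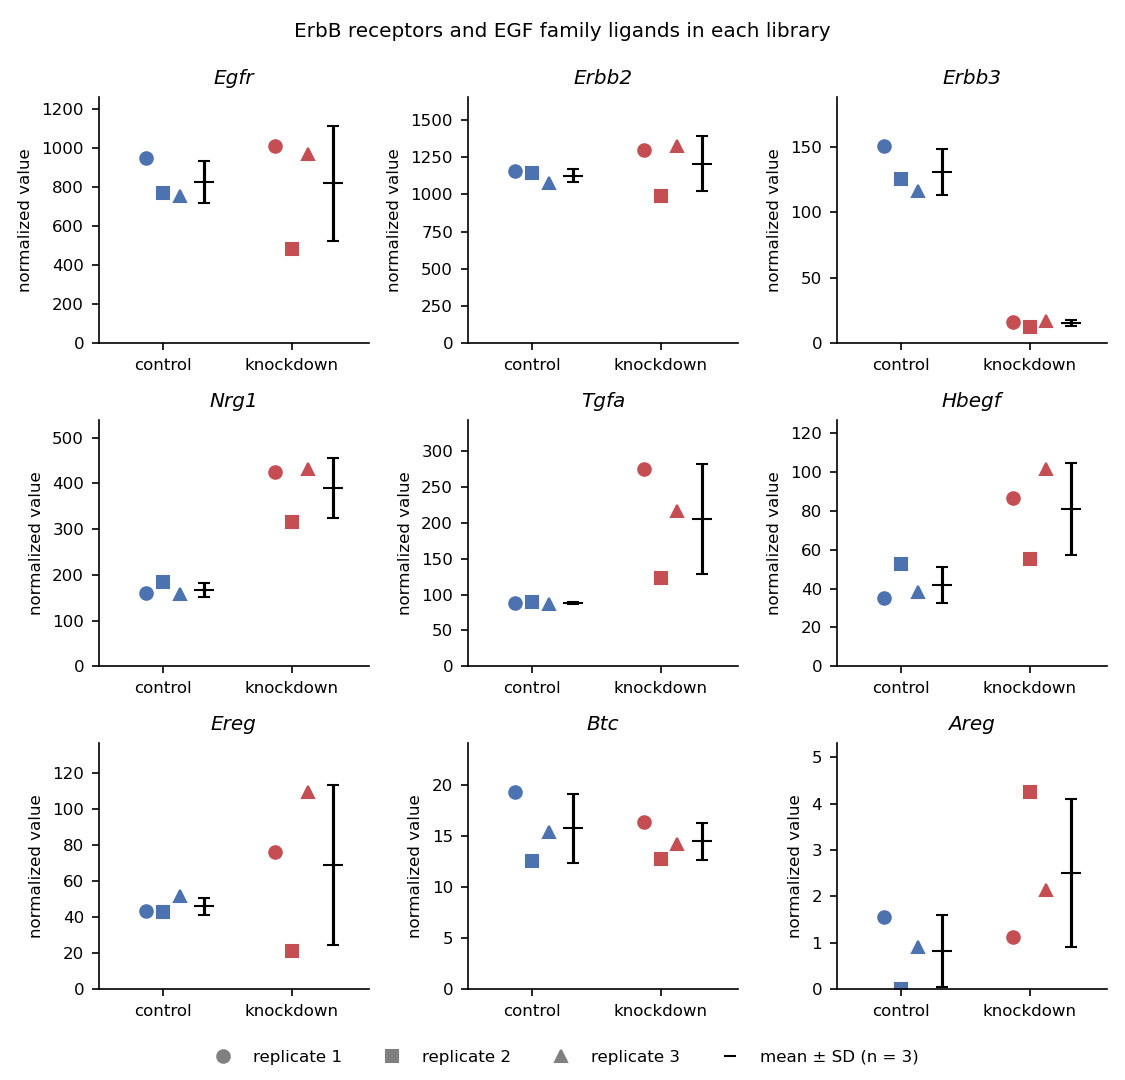
Normalized value of each gene in each library, on a linear axis from 0; circles, squares and triangles are replicates 1, 2 and 3, blue is control, red is knockdown, and black bars give the mean ± SD (n = 3). Erbb3 sits at 116.5 to 150.7 in the controls and 12.8 to 17.1 in the knockdowns, Nrg1, Tgfa and Hbegf are higher in all 3 knockdowns, and the square of knockdown replicate 2 is the lowest knockdown of every gene but Areg.

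Among the ligands, Nrg1 rose. The neuregulin gene measured 159.5, 184.4 and 157.2 in the controls, against 424, 315 and 431 in the knockdowns, with no overlap between the groups. The mean went from 167 ± 15.1 to 390.1 ± 65.5 (SD, n = 3), 2.34-fold higher (log2 fold change 1.21, SE 0.19, limma adjusted p = 0.0272). With its lowest knockdown, replicate 2, left out, the log2 fold change was 1.36 (limma adjusted p = 5.61e-07). The call was lost when any control was left out (limma adjusted p = 0.153, 0.128 and 0.172 for replicates 1, 2 and 3), without knockdown replicate 1 or 3 (0.123 and 0.1002) and with every library scaled to the same total (log2 fold change 1.07, limma adjusted p = 0.190). Over all alternatives the adjusted p ran from 5.44e-08 to 0.190.

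Tgfa and Hbegf were higher in all 3 knockdowns but missed the threshold. Tgfa was even in the controls, at 88.0, 90.2 and 86.7, against 275, 123 and 217 in the knockdowns. The coefficient of variation was 1.99% in the controls and 37.4% in the knockdowns, where replicate 2 was lowest. The mean was 2.32-fold higher, with a log2 fold change of 1.13 (95% interval 0.35 to 1.91, limma adjusted p = 0.118). Hbegf measured 35.0, 52.6 and 38.5 in the controls, against 86.5, 55.3 and 101.6 in the knockdowns. Its highest control and lowest knockdown, both of replicate 2 and resting on 21 and 13 reads, had overlapping counting intervals (32.6 to 80.4 and 29.4 to 94.5). The log2 fold change was 0.91 (95% interval 0.16 to 1.66, limma adjusted p = 0.173). Both passed in the fit without knockdown replicate 2, Tgfa at 1.46 (limma adjusted p = 3.24e-06) and Hbegf at 1.16 (limma adjusted p = 0.000603).

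Ereg was uneven among the knockdowns. Its control values were 43.7, 42.6 and 51.5, and its knockdown values 76.3, 21.3 and 109, the value of replicate 2 resting on 5 reads (interval 6.90 to 49.6). Knockdown replicate 2 lay below all controls and the other knockdowns above them. The log2 fold change was 0.30 (95% interval −1.20 to 1.79, limma adjusted p = 0.763). It was 0.98 without knockdown replicate 2 (limma adjusted p = 0.00139) and −0.17 without knockdown replicate 3 (limma adjusted p = 0.834). Over all alternatives the adjusted p ran from 0.00139 to 0.939.

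Btc and Areg were low in both groups. Btc measured 19.3, 12.5 and 15.4 in the controls, against 16.4, 12.8 and 14.2 in the knockdowns, and the groups overlapped (log2 fold change −0.10, 95% interval −0.79 to 0.59, limma adjusted p = 0.825). Btc was also the tested member that missed the threshold without knockdown replicate 2 (log2 fold change −0.02, limma adjusted p = 0.964). Areg measured 1.55, 0 and 0.90 in the controls, against 1.13, 4.25 and 2.13 in the knockdowns. These are 6, 0 and 1 reads and 2, 1 and 3 reads. Areg was therefore not tested, and no fold is given. The highest value, in knockdown replicate 2, is a single read.

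Of the 8 tested members, 1 rose and 1 fell with all libraries, beside 3.2% and 1.78% of 12085 genes tested (4.98% in either direction). In the fit that left out knockdown replicate 2, 6 rose and 1 fell, where 23.8% of 11995 genes were called higher and 26.1% lower (49.9% in either direction). In that fit about as many of all genes passed as did not. All 3 knockdowns exceeded all 3 controls in Nrg1, Tgfa and Hbegf, and lay below them in Erbb3, where 20.5% and 23.7% of tested genes did so. The 5 tested ligands had a median log2 fold change of 0.91 and the 3 receptors of −0.08, against 0.01 over all genes. With knockdown replicate 2 left out these were 1.16, 0.22 and −0.02. Groups of 3 allow no exact two-sided permutation p below 0.1, the value reached by Erbb3, Nrg1, Tgfa and Hbegf.

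**Figure D2:**
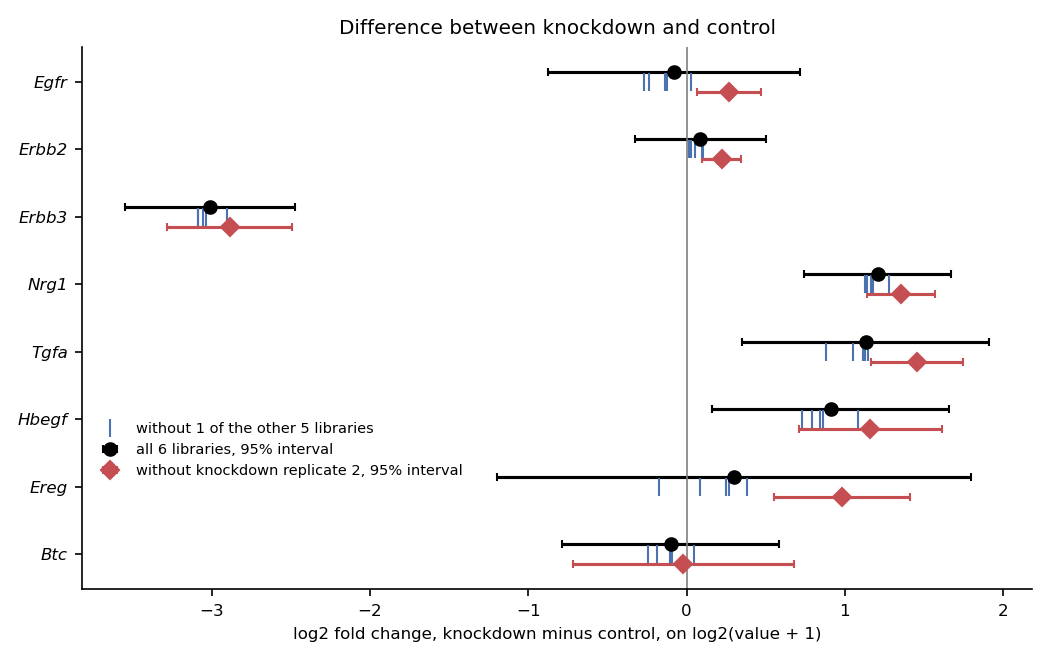
Log2 fold change, knockdown minus control, on log2(value + 1) for the 8 tested genes; black circles use all 6 libraries and red diamonds leave out knockdown replicate 2, both with 95% intervals, and blue ticks leave out 1 of the other 5 libraries. Erbb3 lies at −3.01 and −2.89, and the intervals of Egfr, Erbb2 and Ereg cross 0 with all libraries but not without knockdown replicate 2.

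Levels of different genes were compared per kilobase of transcript, using the median length of each gene's protein-coding transcripts in GENCODE M21. The order therefore depends on the lengths taken, above all for Nrg1, which has 12 such transcripts. In the controls Egfr was highest at 280 ± 36.4 per kb, followed by Erbb2 at 224 ± 8.83, Nrg1 at 68.8 ± 6.23, Tgfa at 35.8 ± 0.71, Erbb3 at 21.7 ± 2.95, Hbegf at 17.7 ± 3.94, Ereg at 11.1 ± 1.18, Btc at 5.47 ± 1.18 and Areg at 0.67 ± 0.64 (SD, n = 3). Of the neighbours in this order, only Erbb3 (19.4 to 25.1) and Hbegf (14.7 to 22.2) overlapped in the controls. In the knockdowns Egfr (163 to 343) overlapped Erbb2 (197.6 to 264), and Ereg (5.15 to 26.5) overlapped Hbegf (23.3 to 42.8) and Btc (4.43 to 5.70). The mean of Erbb3 per kb was 2.56 ± 0.39 in the knockdowns, below Btc at 5.03 ± 0.64, and its values (2.12 to 2.83) overlapped those of Areg (0.93 to 3.50). Its share of the summed level of the 3 receptors per kb was 3.95 to 4.34% in the controls and 0.451 to 0.584% in the knockdowns. The summed level of the 6 ligands per kb was 134.6 to 149 in the controls and 348, 216 and 341 in knockdown replicates 1, 2 and 3. Nrg1 made up 48.1 to 50.9% of it in the controls and 50.2 to 60.0% in the knockdowns, and Tgfa 24.5 to 26.5% and 23.1 to 32.1%.

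**Figure D3:**
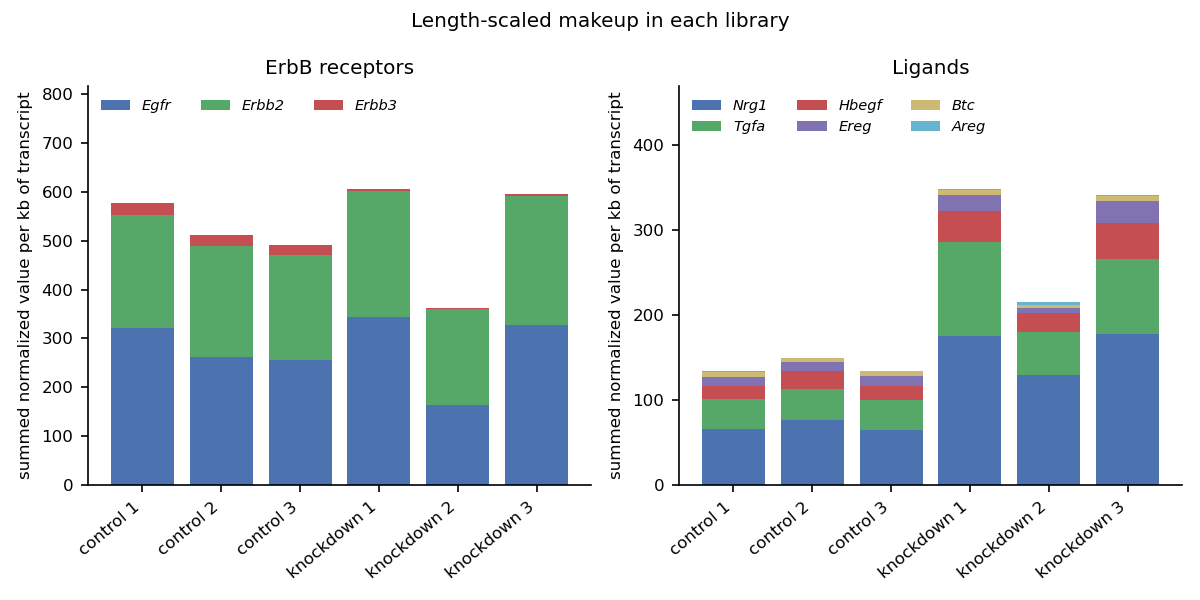
Stacked bars give the normalized value per kilobase of transcript, summed over the 3 receptors (left) and the 6 ligands (right) in each library, on linear axes from 0. The red Erbb3 part is 3.95 to 4.34% of the receptor bars in the controls and under 1% in the knockdowns, and the ligand bars are at most 149 in the controls and at least 216 in the knockdowns.

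Knockdown replicate 2 gave a lower value than the mean of knockdown replicates 1 and 3 in all 8 tested members, by 0.24 (Btc) to 2.05 (Ereg) on the log2 scale. The median of this difference over all genes tested was −0.10. The members have transcripts of 2375 to 6016 nt, and in this library long transcripts were low in general. Whether length made the members low was not tested. Over all tested genes with a length, the shortest of 4 length bins (median 850 nt) had a median log2 difference of 0.81, the bin around 2788 nt had −0.30 and the longest (median 4634.5 nt) had −0.84. Btc (−0.24), Erbb3 (−0.37), Erbb2 (−0.40) and Nrg1 (−0.44) had smaller differences than Hbegf (−0.75), Tgfa (−0.98) and Egfr (−1.04). Btc and Erbb3 rest on 3 reads each in this library, so their place in this order is uncertain. A loess correction for length was added once these values had been seen. With it, the log2 fold changes were 0.01 for Egfr, 0.37 for Erbb2, −2.66 for Erbb3, 1.24 for Nrg1, 1.16 for Tgfa, 0.93 for Hbegf, 0.51 for Ereg and −0.02 for Btc. The same members passed as without it, Erbb3 (limma adjusted p = 0.0038) and Nrg1 (limma adjusted p = 0.0129).

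**Figure D4:**
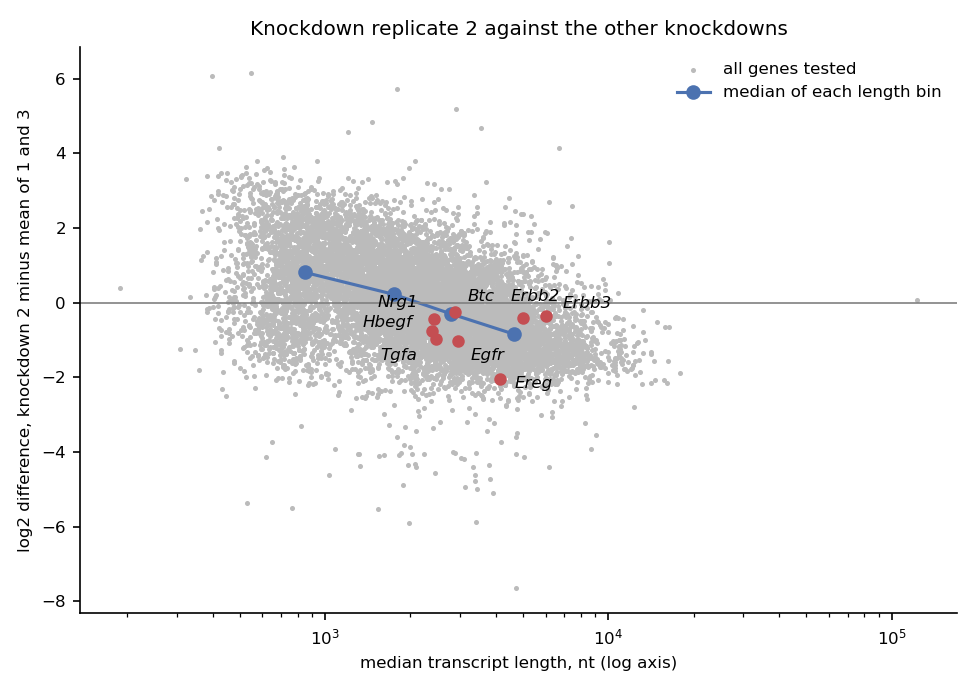
Each grey point is a tested gene, with its median transcript length in nt on a log axis and, on the other axis, the log2 value of knockdown replicate 2 minus the mean of knockdown replicates 1 and 3; blue points are medians of 4 length bins and red points are the tested members. All 8 members lie below 0, Ereg lowest at −2.05, and the blue medians go from 0.81 to −0.84.

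Epgn, Ereg, Areg and Btc follow one another on chromosome 5 in RefSeq's order of protein-coding genes, with none between them. Epgn, which encodes epigen, ranged from 0 to 3.61 in the controls and from 0 to 0.57 in the knockdowns, and of the 4 only Ereg exceeded 20 in every library. Outside the 9 members, the other ligands and receptors of the family were low or not detected. Erbb4 and the neuregulin gene Nrg3 were at 0 in all 6 libraries, which allows a level of up to 0.777 in the deepest library and 12.8 in the shallowest. Egf ranged from 18.1 to 28.2 in the controls and from 8.50 to 24.9 in the knockdowns, and Nrg2 from 16.8 to 26.2 and from 12.8 to 35.1. Neither passed (log2 fold changes −0.35 and 0.02, limma adjusted p = 0.636 and 0.974), and with Nrg4 they made up 3 tested genes, of which 0 rose and 0 fell in either limma fit (1 at an unadjusted p under 0.05 in each, Nrg4). Nrg4 ranged from 14.8 to 18.6 in the controls and from 4.29 to 8.80 in the knockdowns, the lowest value resting on about 1 read. Its log2 fold change was −1.13 (limma adjusted p = 0.146), and −0.85 without knockdown replicate 2 (limma adjusted p = 0.0501).

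Of 9 genes whose products release ligands, Rhbdf2 had at most 1 read in any library, and none of the 8 tested passed with all libraries (0 rose and 0 fell in limma, 2 at an unadjusted p under 0.05). Adam10, a protease that sheds EGF and betacellulin, averaged 3446 ± 99.8 in the controls and 1846 ± 686 in the knockdowns, and Adam9 averaged 2789 ± 67.3 and 2960 ± 1466 (SD, n = 3). Adam10 missed the threshold (log2 fold change −0.98, limma adjusted p = 0.169). When knockdown replicate 2 was dropped, Adam9 rose by 0.45, while Adam10 (−0.62), Adam12 (−1.16) and Rhbdf1, which encodes the iRhom1 cofactor (−0.22), fell. Adam12 and Rhbdf1 were named after their values were seen. That is 1 rise and 3 falls of 8, in the fit that called 49.9% of all genes. Adam17, the main protease for TGF-alpha, amphiregulin and heparin-binding EGF, had a log2 fold change of −0.35 with all libraries (limma adjusted p = 0.51) and was also named after its value was seen.

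Genes that inhibit ErbB receptors or carry them to degradation also gave 0 rises and 0 falls among 15 tested in limma (3 at an unadjusted p under 0.05), with a median log2 fold change of −0.49. Eps15, an adaptor of receptor uptake, averaged 2177 ± 87.5 in the controls and 1062 ± 329 in the knockdowns (SD, n = 3; log2 fold change −1.09, limma adjusted p = 0.0932). Rab7, a regulator of late endosomes, averaged 1724 ± 58.6 and 1298 ± 627. In the fit leaving out knockdown replicate 2, 1 of the 15 rose and 7 fell, beside 23.8% and 26.1% of all genes. The gene that rose was Lrig1, a receptor inhibitor (0.35). The related genes Lrig2 (−0.26) and Lrig3 (−0.69) were among the 7 that fell. These Lrig genes were named after their values were seen. Of the 30 genes for adaptors and kinases below the receptors, 0 rose and 0 fell in limma with all libraries (2 at an unadjusted p under 0.05), and 3 rose and 10 fell without knockdown replicate 2, a share near the 49.9% of all genes called there. The most abundant by the mean over all 6 libraries were Akt1, at 5638 ± 106 in the controls and 5507 ± 305 in the knockdowns, and the phosphatase gene Ptpn11, at 3572 ± 120.3 and 4000.2 ± 1214 (SD, n = 3).

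Among 8 genes that ERK signalling induces, which other receptors such as those for FGF also drive, 2 rose and 0 fell, beside 3.2% and 1.78% of all genes tested, with a median log2 fold change of 0.79 (0.01 over all genes). Spry4, a feedback inhibitor of receptor tyrosine kinases, measured 16.8, 7.52 and 15.4 in the controls, against 96.7, 55.3 and 139 in the knockdowns (log2 fold change 2.76, SE 0.46, limma adjusted p = 0.0327). Phlda1 went from 1118 ± 27.3 to 1876 ± 166 (SD, n = 3; log2 fold change 0.74, limma adjusted p = 0.0424). In both, all 3 knockdowns exceeded all 3 controls. Both calls were lost without control replicate 1, 2 or 3 and without knockdown replicate 1 or 3, where the adjusted p (limma) was 0.102 to 0.150 for Spry4 and 0.137 to 0.226 for Phlda1. With every library scaled to the same total they were lost as well (0.0918 and 0.351), and Phlda1 also missed with no filter on low values (0.0543) and with the length correction (0.0514). Spry1 is in the authors' deposited table at a ratio of 5.90, and Spry4 at 7.39. Spry1 had a limma adjusted p of 0.051, at a log2 fold change of 2.33. Once knockdown replicate 2 was left out, 6 of the 8 rose, adding Spry1 (2.81), Dusp4 (2.32), Fosl1 (1.30) and Spry2 (0.97), all named after their values were seen, and 0 fell, in the fit that called 23.8% of all genes higher and 26.1% lower. The other genes of the list, Dusp5 and Dusp6, passed in neither fit. Their log2 fold changes were 0.11 and 0.01 with all libraries, and 0.26 and 0.44 without knockdown replicate 2. Both were also named after their values were seen. This list was drawn up with earlier results of these data known, so its direction is not independent evidence.

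**Figure D5:**
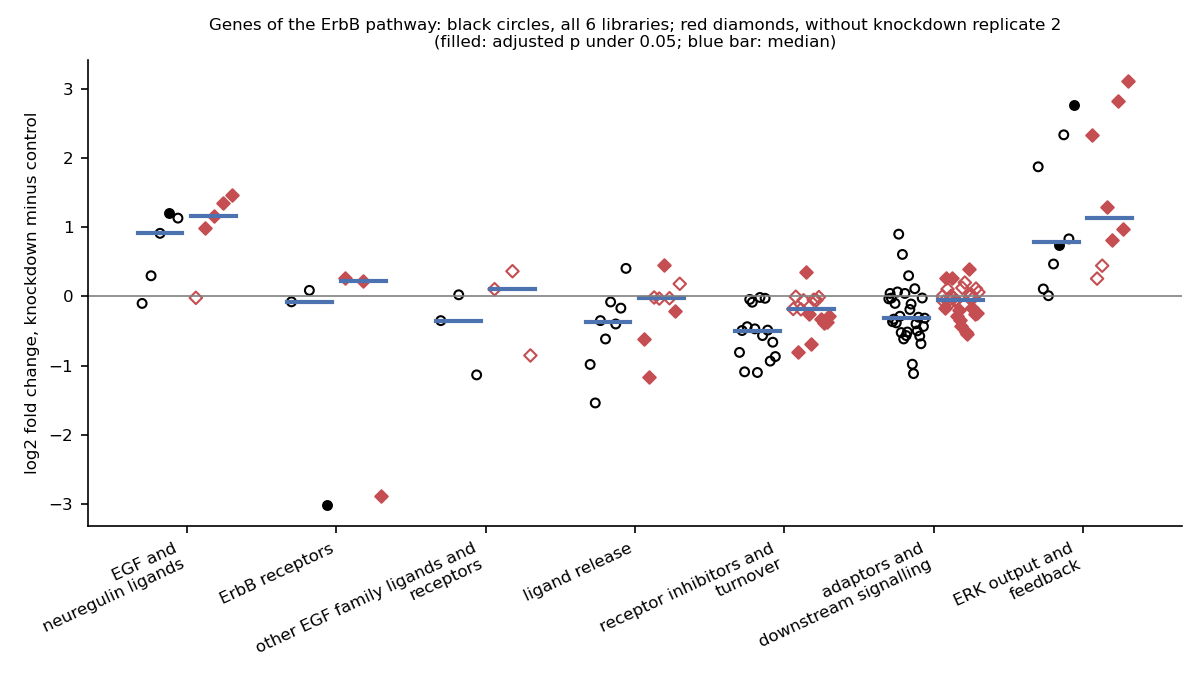
Log2 fold change, knockdown minus control, of each tested gene in 7 lists of the ErbB pathway; black circles use all 6 libraries, red diamonds leave out knockdown replicate 2, filled symbols have an adjusted p under 0.05 and blue bars are list medians. Erbb3 is the filled point at −3.01, and with all libraries the filled points are Nrg1, Erbb3, Spry4 and Phlda1.

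For each tested member, the 2 genes nearest in pattern were taken by Euclidean distance between log2 values centred on each gene's mean over the 6 libraries. Erbb3 was nearest to Igf1 (distance 0.38), the gene for insulin-like growth factor 1, and Sox6 (0.44), a cartilage transcription factor gene, with log2 fold changes of −2.75 and −2.88. Nrg1 was nearest to Sgol1 (0.12) and Ttk (0.14), both genes of chromosome segregation. Tgfa was nearest to Cdc6 (0.14), a gene of DNA replication licensing, and to the matrix protease gene Adamts9 (0.18). Hbegf was nearest to Nlrc3 and Spns2, Ereg to Epha2 and Dyrk3, Egfr to Tmcc3 and Eif2c4, Erbb2 to Rad50 and Uggt1, and Btc to Slc25a26 and Oma1, at distances of 0.05 (Rad50) to 0.37 (Dyrk3). With 6 libraries in 2 groups, many genes share such a pattern, and these distances are descriptions.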

How the data were processed

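RNA was sequenced from 6 samples, 3 control and 3 knockdown, after Trizol isolation and TruSeq library preparation, per the labels' protocols. Per the submitters' processing notes, the tools were RSEM 1.2.12 and Bowtie 1.0.0, and the build mm9. The annotation and the use of strand were not given in the sources used here. Reads of overlapping genes therefore cannot be told apart. A treatment text on cells injected into mice, attached to all 6 labels, matches no sample's own label. The deposited signal is an estimated count per gene divided by a size factor per library, as the table's name and values show. The authors also deposited a list of 323 genes with a fold (ratio); the test behind it was not given in the sources used here.

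The most frequent value above 0 in a library was taken as 1 read. Within 0.1 read, 88.5 to 90.5% of values of at most 20 reads came out whole, so no count test was run. Genes with a mean of at least 10 went into limma 3.58.1 (R 4.3.3) as log2(value + 1) (trend and robust, two-sided, Benjamini-Hochberg over all genes tested, threshold 0.05). The fit was also run on simulated Poisson counts with the same added noise in every library. That simulation held no outlying library and no length trend, so it does not show how the fit behaves with knockdown replicate 2. Replicate pairs differed by more than sampling noise (chi-square per degree of freedom at least 1.50). No label says whether replicates are separate cultures, so a p-value measures only how far these samples spread, and that spread may be technical. Alternatives were other pseudocounts, filters, scalings, library weights, a replicate block, plain empirical Bayes, leaving out each library and a length correction, which was added after the data had been seen. For library weights, limma's default estimate did not converge, and its gene-by-gene method was chosen after seeing that.

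The members and lists were chosen with earlier results of these data known. Named genes are all members, the nearest 2 genes of each tested member and, per list, up to 4 that passed or the 2 most abundant by the mean over all 6 libraries. Genes said to be named after their values were seen fall outside this rule, as do Nrg3, Nrg4, Erbb4, Epgn, Rhbdf2, Gfap, Sox10, Epcam, Vim, Pdgfra and Twist1, which were also chosen after their values were seen. One gene that this rule names is not reported here. For marker lists these are levels only: the 4 endothelial markers summed to 87.7 to 106.7 in the controls and 106.3 to 156 in the knockdowns, nearly all Tek (128 in the knockdowns; Kdr at 0 in 5 libraries), and the 6 leukocyte markers to 24.3 to 27.6 and 33.4 to 59.5, mostly Lyz2 and Cd68. The most abundant epithelial markers were Cdh1 and Krt8, and the most abundant mesenchymal markers, by that mean over both groups, Col1a1 and Col1a2.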

Additional observations from a re-analysis of the deposited data

How the results depend on the processing

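Counts of called genes depended on the libraries. With all 6 libraries limma called 387 genes higher and 215 lower. Total scaling, under which the median over all genes was −0.14 in place of 0.01 (log2), gave 184 and 118, library weights 3048 and 3254, and the length correction 581 and 331. Leaving out a library gave 0 to 2855 genes higher and 0 to 3136 lower, the highest counts being without knockdown replicate 2 and the 0 counts without any control (1475 to 1529 genes at an unadjusted p under 0.05). Of the members, 1 was higher and 1 lower with all libraries. Higher members numbered 0 with total scaling, 6 with library weights and 0 to 6 on leaving out a library, and lower members 0 to 1 on leaving out a library. The replicate number used as a block gave 0 genes and 0 members in either direction (1866 genes at an unadjusted p under 0.05); Erbb3 and Nrg1 then had limma adjusted p = 0.0981 and 0.160, and Spry4 and Phlda1 0.1002 and 0.207. Deviations from the group means correlated at 0.17, −0.05 and −0.05 between same-numbered samples. Of the controls only replicate 1 correlated best with the knockdown of its own number. With groups this small and knockdown replicate 2 far apart, these values cannot tell whether the numbers pair the samples.

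The direction of some differences changed. Egfr was at 0.27 with library weights, 0.014 with the length correction and −0.27 to 0.27 on leaving out a library. Erbb2 was at −0.055 with total scaling. Leaving out a library gave −0.24 to 0.048 for Btc, −0.17 to 0.98 for Ereg, −0.62 to 0.10 for Egf, −0.33 to 0.36 for Nrg2, −0.35 to 0.45 for Adam9, −0.043 to 0.40 for Ptpn11, −0.076 to 0.0044 for Akt1, −0.32 to 0.35 for Lrig1 and −0.085 to 1.30 for Fosl1. Library weights gave 0.075 for Egf, 0.45 for Adam9, 0.022 for Akt1 and 0.31 for Lrig1. Total scaling gave −0.11 for Nrg2 and −0.031 for Ptpn11. The length correction gave −0.28 for Nrg2, 0.11 for Adam9 and 0.19 for Lrig1. The causes were not tested. Erbb3, Nrg1, Tgfa and Hbegf kept their direction in every alternative run. Depth limits Areg, Btc, Ereg and Erbb3 in knockdown replicate 2, where each rests on 1 to 5 reads.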
